A study of Homo sapiens with 4 samples.

Results

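A set of 52 genes of PI3K, PLC and antigen receptor signalling was examined in U937-AE and U937-Mt cells. The genes were chosen by function, with earlier results of these data known. A member was read wherever a probe set of the array was annotated to it and to no other gene. Of the 52 members, 47 had such a probe set, of 19775 genes on the array, and together they had 131 probe sets. PIK3CA, PIK3R2, PIK3AP1 and SH2B3 were named by no probe set in the annotation used, and CARD9 shared its probe set with other genes, so these 5 were not analysed here. U937 cells are human leukemia cells of monocytic type. U937-AE cells are a clone carrying HA-tagged AML1/ETO, the fusion protein of the 8;21 translocation, behind the zinc-inducible mouse metallothionein promoter, and U937-Mt cells are a bulk population carrying the empty pSGMtNeo vector. Both lines received 100 µM ZnSO4 for 8 hours. RNA of 3 extractions was pooled for each cell line, and each pool went onto 2 Affymetrix HG-U133 Plus 2.0 arrays, so that the 4 arrays stand for 1 pool per cell line.

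Immune receptors with ITAM motifs, among them the antigen receptor of B cells and the Fc receptors of myeloid cells, are phosphorylated on engagement and recruit the tyrosine kinase SYK. SYK then phosphorylates adaptor proteins, on which BTK, phospholipase C gamma and PI3K are assembled at the membrane. Phospholipase C cleaves PIP2 into IP3, which releases calcium, and diacylglycerol, which activates protein kinase C, whereas class I PI3K converts PIP2 to PIP3, the lipid that recruits AKT and BTK. Monocytes use this machinery downstream of Fc receptors, integrins and growth factor receptors.

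Expression was compared on single arrays. Signals below the median of an array (119.5 and 129.7 in U937-AE, 146.8 and 153.6 in U937-Mt) were raised to that median, called the floor here, before log2 was taken. Each gene took the value of its brightest probe set, ranked by unraised log2 signals averaged over all 4 arrays. A gene was called when each U937-AE array differed from each U937-Mt array by more than 1.5-fold in 1 direction (4 comparisons), and the fold given is that between the mean log2 signals of the pools, with the range over the 4 comparisons after it. A fold is given as "at least" its size where the dimmer pool was at the floor on both arrays, since it is then a bound. With 1 pool per cell line there is no p-value between the cell lines, the spread covers hybridization error only, and the effect of AML1/ETO and that of selecting a clone cannot be told apart. RUNX1T1, the gene encoding ETO, was used to check the labels: 1 of its probe sets gave 1362 and 1299 in U937-AE, compared to 8.6 and 7.6 in U937-Mt (at least 8.86-fold higher in U937-AE), while another probe set, which ranks first by that mean because it is not near 0 on any array, at 181.9 and 95.5 in U937-AE beside 276.6 and 121.2 in U937-Mt, was not called. The remaining RUNX1T1 probe sets were at the floor on all 4 arrays, so the check rests on 1 probe set. Which of the probe sets lie in the cloned part of ETO was not analysed here. Over all probe sets, log2 signals had r = 0.935 for the pair of U937-AE arrays, 0.919 for the pair of U937-Mt arrays and 0.910 to 0.916 for pairs of different cell lines.

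Of the 47 members, 43 were measured, that is, above the floor on at least 1 array, and ZAP70, TEC, BLNK and GRAP were at the floor on all 4. In U937-AE, 11 members were lower (25.6% of those measured, against 5.56% of 14217 measured genes) and 3 were higher (6.98%, against 2.36%). The other 29 were not called. Because the members were chosen with earlier results of these data known, these shares are a description only. The lower members were the adaptors PRAM1, LAT2, THEMIS2, GAB3, FYB1, SH2D3C and GAB2, the PI3K catalytic subunits PIK3CD and PIK3CB, the protein kinase C isoform PRKCD and the tetraspanin CD81. The higher members were CBL, PLCG1 and PIK3R3. PRAM1 was at least 11.5-fold lower, and among the lower members above the floor on all arrays LAT2 differed most, by 5.91-fold, whereas the 3 higher members averaged 1.60 to 1.91-fold. Without the second U937-AE array, 5 members were higher, with SKAP2 and CD79B added. A member can be lower because fewer cells of a pool express it or because each cell holds less of its RNA, and these cannot be told apart. When the arrays were scaled instead to 18 hybridization spike-in probe sets, which raised U937-AE relative to U937-Mt by 0.34 on the log2 scale, 9 members were lower and 5 higher (64.3% of calls lower, against 78.6%), and of all genes 290 were lower and 1369 higher (17.5% of calls lower, against 70.2%). PIK3CB and PIK3CD lost their calls under that scaling, SKAP2 and CD79B gained one, and none of the 14 called members changed direction, though 9 uncalled members did.

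**Figure D1:**
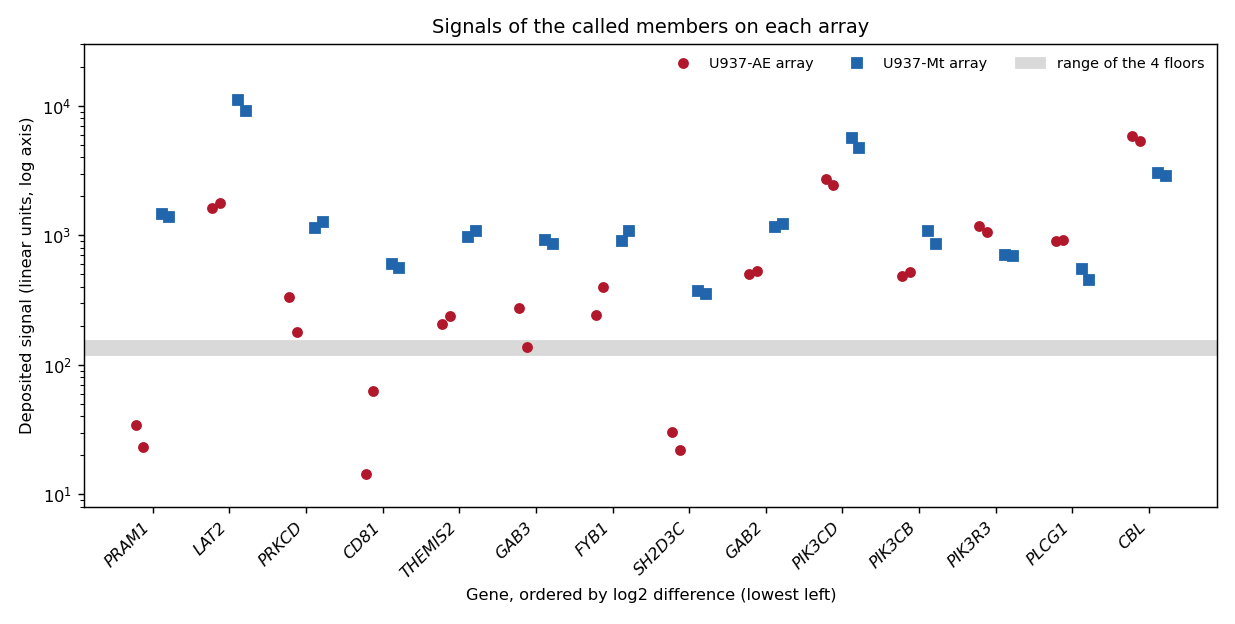
Deposited signal (linear units on a log axis) of the 14 called members on each of the 4 arrays, with U937-AE arrays as circles and U937-Mt arrays as squares, ordered by log2 difference. The gray band spans the 4 floors, 119.5 to 153.6. The circles of PRAM1, CD81 and SH2D3C lie below the band, and for each of the 14 genes the circles and squares do not overlap.

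The measured members had a median log2 difference of -0.42, against -0.14 over all measured genes. Part of this depends on the floors, which were higher in U937-Mt: by construction, a probe set below all 4 floors takes a log2 difference of -0.27. Among the 37 members above the floor on all 4 arrays, the median was -0.12, against -0.06 over 10678 such genes, and these 37 held 8 of the 11 lower members and all 3 higher members (5.48% and 2.66% of the 10678 genes were called lower and higher). In 26 members every comparison was below 0, in 10 every comparison was above 0, and 7 had comparisons on both sides. The same counts over all measured genes were not made, so this split has no background beside it. Where both U937-AE arrays are at the floor, the higher U937-Mt floors alone put every comparison below 0. Copies of 1 pool were over 1.5-fold apart for 4 members in U937-AE (PIK3R5, GAB3, FYB1 and PRKCD) and for 2 in U937-Mt (PIK3R5 and PLCB2). Between single arrays of the cell lines this held for 18 to 23 of the 43 measured members. Over all 19775 genes, the numbers were 1006 in U937-AE, 1234 in U937-Mt and 2780 to 3492 between the cell lines. Only 14217 of these genes were measured, and a gene at the floor on all arrays cannot be 1.5-fold apart. The counts of measured members and of all genes are therefore not on the same base.

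**Figure D2:**
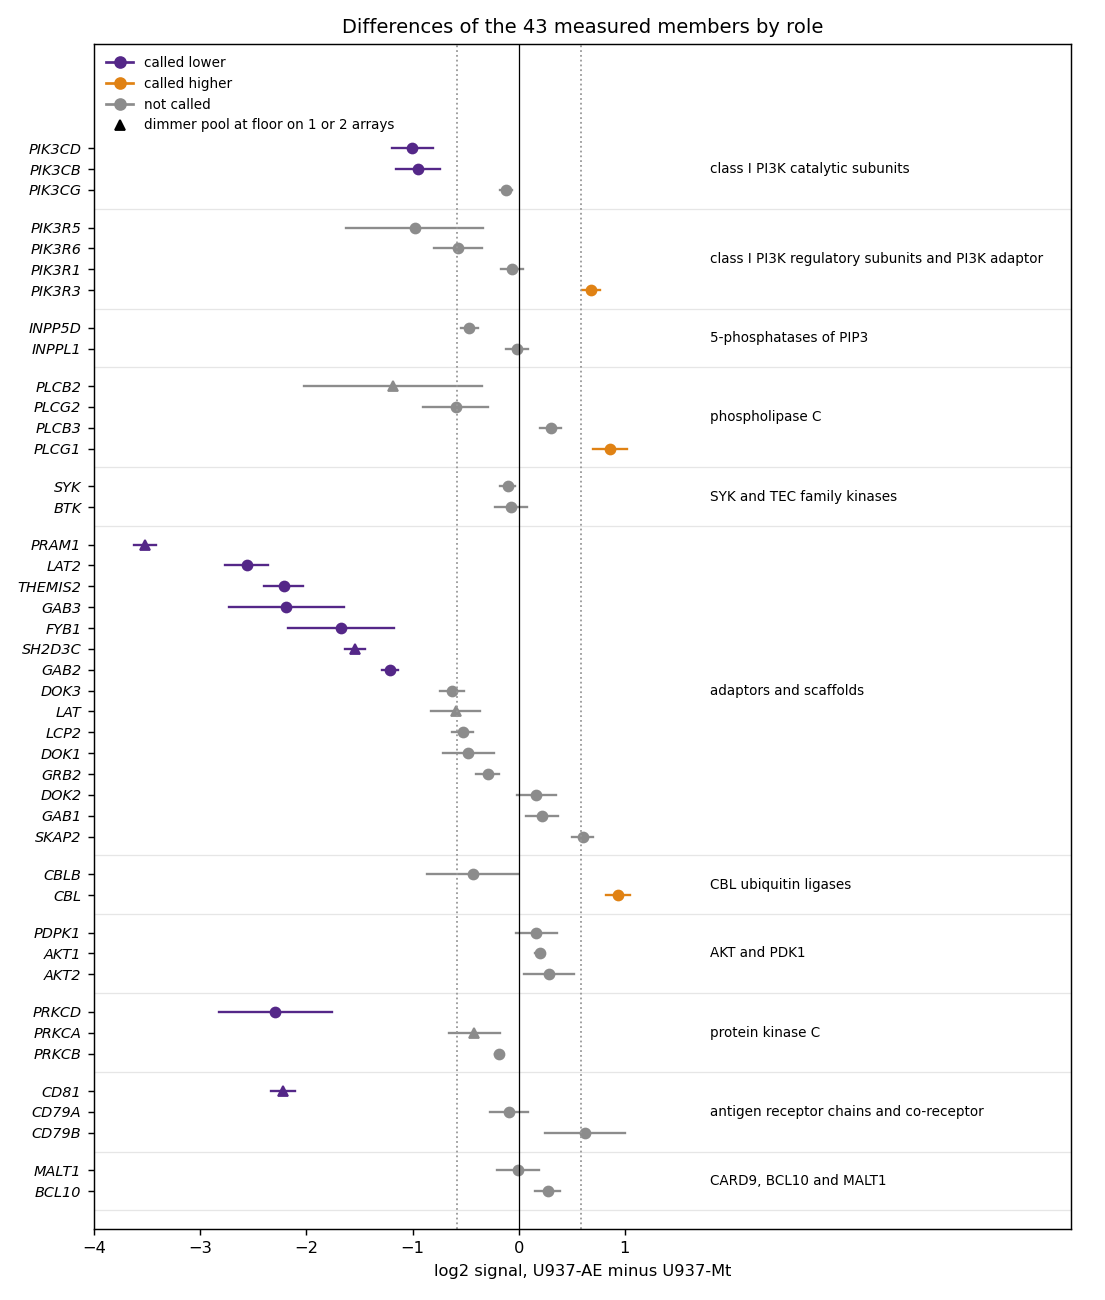
Log2 difference (U937-AE minus U937-Mt) for the 43 measured members, grouped by role. Points are differences of pool means, bars span the 4 comparisons of single arrays, and dotted lines mark 1.5-fold. Triangles mark genes of which the dimmer pool was at its floor on 1 or 2 arrays. Adaptors extend from -3.52 (PRAM1) to 0.60 (SKAP2), while SYK, BTK, AKT1 and PRKCB lie close to 0.

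Promoter sequence was searched for the AML1 core sites TGTGGT and TGCGGT, since AML1/ETO keeps the DNA-binding domain of AML1, and for the E-box CAGNTG, the site of E-proteins such as HEB, on both strands. The windows run from 250 bases before to 50 bases after each annotated start (RefSeq, GRCh38.p14), and a gene can have several. Of the 47 members, 38 had a window. At least 1 window held a core site in 12 of these 38 (31.6%) and in 6252 of all 27305 genes (22.9%), and counted by window the shares were 15 of 75 (20%) and 19.6%. Among the called members these were FYB1, PIK3CD, PRKCD and SH2D3C, of 8 lower members with a window, and PIK3R3, of 2 higher members with a window. THEMIS2, GAB3, GAB2, PIK3CB and PLCG1 had none in their windows. The E-box, which is short and common, was found in 54.7% of the members' windows and in 49.9% of all windows, and in at least 1 window of 29 of the 38 members (76.3%) and of 54.9% of all genes. A window with a TGTGGT site is printed for each of the 3 lower members with the largest differences among those that had one, PRKCD, FYB1 and SH2D3C, with the core sites in capitals (ACCACA is TGTGGT on the opposite strand). In PRKCD the sites begin 233 and 73 bases before the start, in FYB1 39 bases and in SH2D3C 104 bases before it, and the SH2D3C window also holds a CAGNTG, 58 bases before its start. Which start these cells used was not analysed, and a match of letters is not evidence of binding.
PRKCD, chr3:53168453-53168752, plus strand: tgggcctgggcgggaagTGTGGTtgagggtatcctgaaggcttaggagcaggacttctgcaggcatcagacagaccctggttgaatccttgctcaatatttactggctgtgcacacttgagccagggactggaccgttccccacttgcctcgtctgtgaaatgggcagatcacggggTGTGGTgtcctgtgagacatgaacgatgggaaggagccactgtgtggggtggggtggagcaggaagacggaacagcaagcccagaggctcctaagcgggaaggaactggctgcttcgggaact
FYB1, chr5:39270600-39270899, minus strand: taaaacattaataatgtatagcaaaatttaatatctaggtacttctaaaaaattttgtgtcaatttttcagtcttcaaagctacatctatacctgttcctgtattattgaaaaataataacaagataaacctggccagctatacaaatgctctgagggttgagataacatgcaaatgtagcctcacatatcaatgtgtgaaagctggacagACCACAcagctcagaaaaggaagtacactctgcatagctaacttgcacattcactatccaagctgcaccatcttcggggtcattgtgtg
SH2D3C, chr9:127762391-127762690, minus strand: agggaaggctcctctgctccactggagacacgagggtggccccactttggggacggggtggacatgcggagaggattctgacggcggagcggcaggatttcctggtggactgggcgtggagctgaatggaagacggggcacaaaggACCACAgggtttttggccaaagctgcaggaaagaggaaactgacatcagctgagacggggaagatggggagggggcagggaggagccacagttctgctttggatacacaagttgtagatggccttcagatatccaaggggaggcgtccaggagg

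At the receptor level, the signalling chains of the B cell receptor and CD81 differed from each other. CD81, a widely expressed tetraspanin of the cell membrane, had signals of 14.3 and 63.1 in U937-AE, compared to 600.5 and 557.1 in U937-Mt (at least 4.65-fold lower, 4.30 to 5.03). Both U937-AE arrays were below the floor and both U937-Mt arrays well above it. CD79A, an ITAM-bearing chain of the receptor, gave 1051 and 830.6 in U937-AE beside 1000 and 987.8 in U937-Mt, and the arrays of the cell lines overlapped. Its partner CD79B gave 489.2 and 381.9 in U937-AE beside 320.8 and 245.0 in U937-Mt (1.54-fold, 1.19 to 2.00), without overlap but not called. U937 cells are not B cells, but the B cell markers BLK, CD22, MS4A1 and PAX5 were each above the floor on at least 1 array. CD22 was above it on all 4, at 263.0 and 412.8 in U937-AE beside 389.2 and 324.5 in U937-Mt. None of these markers was called, with summed signals of 644.3 and 855.9 in U937-AE beside 813.9 and 630.1 in U937-Mt. A call compares the cell lines and does not show whether a marker is expressed.

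SYK, BTK and their relatives in the set were not called. SYK gave 3130 and 3037 in U937-AE beside 3422 and 3205 in U937-Mt, a 1.07-fold difference (1.02 to 1.13). BTK, which PIP3 brings to the membrane, gave 2360 and 2229 in U937-AE beside 2238 and 2597 in U937-Mt, and its arrays overlapped. Both were well above the floors on all arrays. ZAP70, the T cell counterpart of SYK, and TEC, a relative of BTK, were at the floor on all 4 arrays.

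Adaptors and scaffolds held most of the lower members: of 15 measured, 7 were lower and none was higher, with 8 uncalled by the brightest probe set. Of all measured genes, 5.56% were lower and 2.36% higher. The 7 lower adaptors were called lower under spike-in scaling as well. PRAM1, an adaptor of myeloid cells related to FYB1, gave 34.3 and 23.2 in U937-AE, compared to 1473 and 1387 in U937-Mt, at least 11.5-fold lower (10.7 to 12.3). Its U937-AE arrays were far below the floor. LAT2, a transmembrane adaptor of B cells and myeloid cells that is phosphorylated after Fc receptor engagement, gave 1624 and 1786 in U937-AE, compared to 11024 and 9189 in U937-Mt, 5.91-fold lower (5.14 to 6.79). Its U937-AE arrays remained well above the floor. A dimmer LAT2 probe set gave 56.0 and 272.7 in U937-AE, compared to 230.6 and 457.1 in U937-Mt without passing the rule, since its arrays overlapped.

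THEMIS2, an adaptor that modulates signalling in B cells and macrophages, gave 205.2 and 236.9 in U937-AE, compared to 969.0 and 1080 in U937-Mt, 4.64-fold lower (4.09 to 5.26), and its other probe set was 3.99-fold lower (3.61 to 4.41). Both probe sets of the gene were therefore called and differed by similar amounts. FYB1, an adaptor that couples immune receptors to integrins, gave 241.2 and 397.3 in U937-AE, compared to 896.1 and 1085 in U937-Mt, 3.19-fold lower (2.26 to 4.50). Of its other 4 probe sets, 1 was 4.34-fold lower (3.79 to 4.96), 1 at least 2.98-fold lower (2.46 to 3.61), 1 was not called at 1.81-fold (1.47 to 2.23) and 1 was at the floor on all arrays. SH2D3C, a scaffold that binds CAS family proteins in adhesion signalling, gave 30.4 and 22.1 in U937-AE, compared to 370.9 and 352.6 in U937-Mt, at least 2.90-fold lower (2.72 to 3.10). Only this probe set of SH2D3C was measured, with the other 2 at the floor throughout.

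The GAB family of docking proteins, which recruit PI3K and the phosphatase SHP2 to receptors, did not move as 1 group. GAB3, most studied in macrophages, gave 274.0 and 138.4 in U937-AE, compared to 920.4 and 857.4 in U937-Mt, 4.56-fold lower (3.13 to 6.65), with the lower U937-AE array only slightly above its floor. GAB2 gave 498.6 and 528.0 in U937-AE, compared to 1161 and 1220 in U937-Mt, 2.32-fold lower (2.20 to 2.45), the narrowest range among the lower members above the floor on all arrays. GAB1 was not called by its brightest probe set, at 444.5 and 428.7 in U937-AE beside 409.2 and 343.9 in U937-Mt (1.16-fold, 1.05 to 1.29). Another GAB1 probe set, at 571.1 and 480.2 in U937-AE beside 244.0 and 317.3 in U937-Mt, was called higher (1.88-fold, 1.51 to 2.34), and its remaining 5 were not called. No probe set of GAB1 was called lower.

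SKAP2, an adaptor that binds FYB1 and PRAM1, stood just outside the call by its brightest probe set, in the opposite direction to both partners. Its brightest probe set gave 5587 and 4960 in U937-AE beside 3490 and 3435 in U937-Mt (1.52-fold, 1.42 to 1.63), without overlap. Another, at 2876 and 2663 in U937-AE beside 1537 and 1587 in U937-Mt, was called higher (1.77-fold, 1.68 to 1.87). The dimmest, at 137.6 and 164.2 in U937-AE beside 177.7 and 291.3 in U937-Mt, pointed the other way without a call (1.51-fold lower, 1.08 to 2.12). A further probe set had overlapping arrays, and the rest were higher in every comparison but not called. DOK3, an inhibitory adaptor of B cell and myeloid receptors, was nearest to a call of lower, at 2184 and 2425 in U937-AE beside 3645 and 3461 in U937-Mt (1.54-fold, 1.43 to 1.67). LCP2, the scaffold on which phospholipase C gamma is activated, gave 1898 and 1743 in U937-AE beside 2555 and 2689 in U937-Mt (1.44-fold, 1.35 to 1.54). For both genes all U937-AE arrays were below all U937-Mt arrays, by less than the call requires. Of the remaining uncalled adaptors, DOK1, GRB2 and DOK2 had log2 differences of -0.48, -0.29 and 0.17, and LAT, the T cell relative of LAT2, gave 147.0 and 57.1 in U937-AE beside 189.3 and 229.5 in U937-Mt, with 1 U937-AE array at the floor.

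Among all 102 measured probe sets of the members, 16 were lower (15.7%, against 4.56% of 32779 measured probe sets) and 7 were higher (6.86%, against 2.16%), while 29 more never passed the floor. These 23 probe sets belonged to 18 members, and no member had probe sets called in opposite directions. In 4 of the 18 the call came only from a probe set other than the brightest: GAB1 and SKAP2 were higher by it, and PIK3R5 and PLCG2 lower.

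The class I PI3K subunits differed among themselves. PIK3CD, the delta catalytic subunit that is enriched in leukocytes, gave 2720 and 2447 in U937-AE, compared to 5605 and 4755 in U937-Mt, 2.00-fold lower (1.75 to 2.29), and its other probe set, at 350.6 and 522.1 in U937-AE beside 773.9 and 713.5 in U937-Mt, was not called (1.74-fold, 1.37 to 2.21). PIK3CB, the widely expressed beta subunit, gave 485.4 and 517.0 in U937-AE, compared to 1084 and 861.5 in U937-Mt, 1.93-fold lower (1.67 to 2.23). In neither gene did arrays of the 2 cell lines overlap. PIK3CG, the gamma subunit that acts downstream of G protein-coupled receptors, gave 3672 and 3930 in U937-AE beside 4137 and 4105 in U937-Mt without passing the rule (1.08-fold, 1.04 to 1.13).

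Of the regulatory subunits, only PIK3R3, which stabilizes the alpha, beta and delta catalytic subunits, was called by its brightest probe set. It gave 1187 and 1070 in U937-AE, compared to 706.1 and 698.4 in U937-Mt, 1.60-fold higher (1.52 to 1.70), close to the threshold, while its other probe set was not called (1.04-fold, 0.96 to 1.12). PIK3R1, the main subunit of that kind, gave 1754 and 1884 in U937-AE beside 1831 and 1972 in U937-Mt, and its arrays overlapped. PIK3R5, a partner of the gamma subunit, gave 227.8 and 365.0 in U937-AE beside 701.3 and 461.4 in U937-Mt. It averaged 1.97-fold lower (1.26 to 3.08) without being called, because the copies of each pool were far apart. Its second probe set, at 218.0 and 203.3 in U937-AE, compared to 435.4 and 408.1 in U937-Mt, was called lower (2.00-fold, 1.87 to 2.14). PIK3R6, the other partner of the gamma subunit, lay close to the floors and was not called (1.48-fold, 1.27 to 1.74).

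INPP5D and INPPL1, the phosphatases that remove a phosphate from PIP3, were not called. INPP5D, the form of blood cells, gave 2679 and 2724 in U937-AE beside 3907 and 3563 in U937-Mt (1.38-fold, 1.31 to 1.46), with no overlap. INPPL1 gave 1465 and 1500 in U937-AE beside 1589 and 1408 in U937-Mt, with overlap.

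The 2 gamma forms of phospholipase C had called probe sets in opposite directions. PLCG1 gave 897.1 and 918.0 in U937-AE, compared to 553.3 and 451.8 in U937-Mt, 1.81-fold higher (1.62 to 2.03), although its other probe set, at 423.4 and 530.4 in U937-AE beside 581.6 and 569.6 in U937-Mt, was not called and pointed the other way (1.21-fold lower, 1.07 to 1.37). PLCG2, the form that predominates in B cells and myeloid cells, was not called by its brightest probe set, at 926.3 and 736.1 in U937-AE beside 1130 and 1371 in U937-Mt (1.51-fold, 1.22 to 1.86). Another PLCG2 probe set, at 493.0 and 513.6 in U937-AE, compared to 1097 and 1012 in U937-Mt, was called lower (2.09-fold, 1.97 to 2.22). Of the beta forms, which G proteins activate, PLCB2 gave 180.9 and 111.1 in U937-AE beside 230.5 and 527.3 in U937-Mt without passing the rule. Its U937-Mt copies were more than 1.5-fold apart and 1 U937-AE array was at the floor. PLCB3 had a log2 difference of 0.30 (0.20 to 0.40 over the comparisons) and was not called.

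Downstream of diacylglycerol, PRKCD, a calcium-independent protein kinase C, gave 335.6 and 178.5 in U937-AE, compared to 1136 and 1262 in U937-Mt, 4.89-fold lower (3.39 to 7.07). The U937-AE copies differed from each other by more than 1.5-fold, and both were far below the U937-Mt arrays. PRKCB, a calcium-dependent isoform, gave 4591 and 4628 in U937-AE beside 5348 and 5128 in U937-Mt (1.14-fold, 1.11 to 1.17) and was not called. PRKCA was above the floor on only 1 array, of U937-Mt. Of the 3 isoforms in the set, all measured, 1 was therefore lower, and the other 2 were not called. PRKCE, PRKCI, PRKCQ and PRKCZ, measured outside the set, were not called either.

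AKT1, AKT2 and PDPK1, the kinases that PIP3 recruits and the activator of AKT, were not called, with log2 differences of 0.20, 0.29 and 0.17. AKT1 gave 2021 and 2138 in U937-AE beside 1813 and 1813 in U937-Mt, without overlap. BCL10 and MALT1, which link the receptors to NF-kB, had log2 differences of 0.27 and -0.01 and were not called.

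CBL, a ubiquitin ligase that marks activated receptors and tyrosine kinases for degradation, was the largest difference among the higher members. It gave 5890 and 5382 in U937-AE, compared to 3047 and 2849 in U937-Mt, 1.91-fold higher (1.77 to 2.07). Another 2 probe sets were called higher as well, by 1.64-fold (1.58 to 1.70) and 1.74-fold (1.66 to 1.82), the last with 1 U937-Mt array at its floor, and the remaining 2 were not called. CBLB, its closest relative, gave 266.4 and 183.8 in U937-AE beside 267.6 and 334.2 in U937-Mt without passing the rule (1.35-fold, 1.00 to 1.82).

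Other genes of the same pathways were read from 4 lists with 136 genes, of which 108 were measured. Of these, 10 were lower (9.26%, against 5.56% of all measured genes) and 2 were higher (1.85%, against 2.36%). Their median log2 difference was -0.12, beside -0.14 over all measured genes. Under spike-in scaling the split turned round, to 4 lower and 16 higher, as did that over all genes, to 290 lower and 1369 higher. Antigen receptor chains, ITAM adaptors and scaffolds outside the set had 4 lower and 1 higher of 23 measured (17.4% and 4.35%, against 5.56% and 2.36%). Their median was -0.12, and under spike-in scaling 4 were lower and 4 higher. SLA, an adaptor that dampens SYK and ZAP70 signalling, gave 855.6 and 817.4 in U937-AE, compared to 4085 and 3895 in U937-Mt (4.77-fold lower, 4.55 to 5.00), and SH3BP2, an adaptor that binds SYK, was 2.91-fold lower (2.42 to 3.51). TYROBP, an ITAM adaptor of myeloid receptors, was at least 2.98-fold lower (2.71 to 3.28), and VAV2, a guanine nucleotide exchange factor, 2.16-fold lower (1.99 to 2.35). VAV3, of the same family, was the higher gene of the list (1.92-fold, 1.85 to 2.00) and is named here after its values were seen.

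The other 3 lists held 6 lower genes and 1 higher gene, but under spike-in scaling 0 lower and 12 higher, beside 290 lower and 1369 higher over all genes. The 6 lower genes then lost their calls with log2 differences still below 0. Of 27 measured inositol lipid kinases and phosphatases, 4 were lower (14.8%, against 5.56% of all measured genes) and none was higher (median -0.06). Lower were PIK3R4, the regulatory subunit of class III PI3K, by 2.09-fold, the phosphatase MTMR1 by 1.99-fold, the class II PI3K PIK3C2B by 1.84-fold and INPP5A, which inactivates IP3, by 1.70-fold. Of 31 measured genes of phospholipase C, diacylglycerol, IP3 and calcium entry, 1 was lower and 1 higher (median -0.31). Each was 3.23% of the list, against 5.56% lower and 2.36% higher of all measured genes. The called genes of that list were 2 diacylglycerol kinases, DGKZ (1.93-fold lower) and DGKE (1.71-fold higher). Of 27 measured genes of the AKT and mTOR branch, IRS2, a docking protein of the insulin receptor, was lower (2.02-fold), and none was higher (median -0.09). That is 3.70% lower, against 5.56% of all measured genes.

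Markers of the monocytic lineage were read beside these results. Of 6 markers with a probe set, 4 were measured and 2, ITGAM and LYZ, were lower in U937-AE. ITGAM, the alpha M chain of a beta 2 integrin, gave 543.7 and 581.5 in U937-AE, compared to 1208 and 1219 in U937-Mt. LYZ, lysozyme, gave 1000 and 793.6 in U937-AE, compared to 2022 and 1646 in U937-Mt. CD4, between 3008 and 3419 on the 4 arrays, and CSF1R were not called, and CD14 and FCGR1A were at the floor on all 4. The summed signal of the 6 was 4835 and 4599 in U937-AE beside 6602 and 6661 in U937-Mt. Of the T cell markers, CD3D, CD3E and CD5 stayed at the floor, CD8A passed it on 1 array and CD2 on all 4. The natural killer cell markers NCAM1 (860.1 to 1116.5) and KLRD1 and the erythroid marker KLF1 were also above the floor on all 4. NCR1 and ALAS2 stayed at it. No T cell, natural killer cell or erythroid marker was called, which compares the cell lines and does not show that a marker is absent. The part of the monocytic markers in the lower adaptors was not tested.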

How the data were processed

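Transcripts of 2 pools, 1 of U937-AE and 1 of U937-Mt, were measured on 4 arrays. The authors deposited 1 linear signal intensity per probe set, made with GCOS at default settings (version: not given in the sources used here), then scaled to a common trimmed mean. Probe sets naming several genes, and control probe sets, were not used. From the deposited intensities, values below each array's 50th percentile were raised to it and log2 was taken. The brightest probe set before that step stood for a gene, and all 4 comparisons had to exceed 1.5-fold. The labels give numbered replicates, whereas in the study's methods both arrays of a line are copies of 1 pool, so the calls rest on no p-value. Those of limma and the t-test, run as alternatives, reflect differences between copies and not between cultures. The number of arrays limits the precision.

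The members and lists were chosen with earlier results of these data known. Named genes were all called members, members with a called probe set, those nearest the threshold, and up to 4 called genes per list. Alternatives were other normalizations, floors, thresholds and probe set choices, limma, the methods' t-test, and leaving out each array; a common floor was added after seeing the data. The call rule and limma were tested on simulated data. Python 3.11.15 (pandas 2.3.3, scipy 1.17.1) and R 4.3.3 with limma 3.58.1 were used.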

Additional observations from a re-analysis of the deposited data

How the results depend on the processing

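The 11 lower and 3 higher members were all called again at a floor at the 25th percentile, with no floor, with quantile normalization, with a common floor (added after seeing the data), with limma, and when any 1 array was left out. Leaving out an array, which leaves 2 comparisons, gave 13 lower members in each case and 3 to 5 higher members, with 5 without the second U937-AE array (SKAP2 and CD79B added), and 21 to 23 lower and 7 to 11 higher probe sets, a median from -0.40 to -0.23, and 1137 to 1591 lower and 456 to 557 higher among all genes. Spike-in scaling gave 9 lower and 5 higher members, 12 higher probe sets, a median of -0.076, and 290 lower and 1369 higher genes. Over all measured genes the median was 0.21 under spike-in scaling, -0.027 with quantile normalization and -0.10 with a floor at the 75th percentile. At that last floor the median of the members was the same as that of all measured genes. The median of the members was -0.29 with quantile normalization and with a common floor, -0.10 with a floor at the 75th percentile, where SH2D3C and CD81 lost their calls, -0.33 with the mean over probe sets and -0.35 when probe sets ending in _x_at or _s_at were left out. There, GAB2 and THEMIS2 had no probe set left, and LAT2 was not called by its dimmer probe set. With that choice 8 members were lower, and DGKZ turned to 0.061 on the log2 scale. The mean over probe sets left 10 lower and 0 higher members (PIK3CB, CBL, PLCG1 and PIK3R3 lost) and 186 higher genes. Requiring 2-fold left 9 lower and 0 higher members, 0 higher probe sets, and 263 lower and 98 higher genes, whereas 1.5-fold between pool means gave 16 lower and 5 higher members, 28 lower and 14 higher probe sets, and 1806 lower and 624 higher genes. Among all genes, lower calls numbered 1345 with a floor at the 25th percentile, 373 at the 75th and 1687 with no floor, where 577 were higher. With an adjusted p from limma under 0.05 and 1.5-fold, which covers the spread between array copies only, 12 members were lower and 4 higher, and 513 of all genes were higher. With the array number as a replicate block, limma gave 12 lower and 5 higher members, 28 lower and 13 higher probe sets, and 1433 lower and 570 higher genes, but the numbers do not pair the arrays (r = 0.06 between deviations of same-numbered arrays across 10678 genes). The methods' t-test with 2-fold, unadjusted, gave 10 lower and 0 higher members, 0 higher probe sets, and 385 lower and 131 higher genes, and after Benjamini-Hochberg adjustment 0 in every count of members, probe sets and genes, where limma made the calls given above. For these alternatives the cause of a moved value was not tested. Signals near the floors limit PRAM1, CD81, SH2D3C and TYROBP to bounds, and no other cultures were measured.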
